A study of Mus musculus with 12 samples.

Results

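The genes described here encode 39 proteins of the extracellular matrix other than collagens. They were taken from a list of names, and each was found in the count tables through its Ensembl identifier. All 39 exceeded the minimum of 15 counts summed over the libraries, with the smallest sum at 450, and all 39 passed the filter on low counts among 18618 genes tested. They were ordered by role into 14 provisional matrix and matricellular genes, 9 small leucine-rich proteoglycans, 5 large proteoglycans and hyaluronan synthases, and 11 genes of elastic fibers and microfibrils.

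RNA was sequenced from 12 dorsal wounds of male C57BLKS/J mice with the Lepr (db/db) genotype, whose labelled age was 12.5 weeks. Such mice lack a functional leptin receptor, so every group was obese and diabetic, and no wound of a non-diabetic mouse was analysed here. A full-thickness punch of 6 mm was made in the back skin and the wound was collected on day 10. The TD group of 5 libraries had a Tegaderm film dressing alone, the strain group of 4 wore a patch that imposed about 30% strain, and the no-strain group of 3 wore a patch without strain. Whether wounds shared a mouse is not stated in the labels, and p-values measure only the spread between these libraries.

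A wound first fills with a provisional matrix of fibronectin and fibrin, into which matricellular proteins such as tenascin-C, thrombospondins, periostin and osteopontin are secreted. These bind cells and growth factors and give little mechanical support. Small leucine-rich proteoglycans then space and bind collagen fibrils, large proteoglycans and hyaluronan hold water, and elastic fibers are laid down on a microfibril scaffold of fibrillins. Fibroblasts make most of these proteins in skin. In tissue RNA, fewer cells of a type and less RNA per cell cannot be told apart.

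Promoter sequence is shown for 4 of the members whose level passed a test against TD. Thbs4, Fmod, Hspg2 and Acan also passed and had a promoter sequence, but are not shown. The letters run 5′ to 3′ on the strand of the gene and end before the first annotated exon base. They come from the RefSeq promoter table of GRCm38.p6, in which 27 of the 39 members had an entry. Capitals mark matches, on either strand, to the AP-1 motif TGANTCA, the TEAD motif GGAATG, the TATA box TATAAA, the SP1 motif GGGCGG or the SRF CArG box. No pair of these motifs overlaps in the sequences shown. The Efemp1 window lies at chr11:28852955-28853203 (plus strand), Tnxb at chr17:34670285-34670534 (plus strand), Prelp at chr1:133921415-133921651 (minus strand) and Tnc at chr4:64047016-64047265 (minus strand).
Efemp1: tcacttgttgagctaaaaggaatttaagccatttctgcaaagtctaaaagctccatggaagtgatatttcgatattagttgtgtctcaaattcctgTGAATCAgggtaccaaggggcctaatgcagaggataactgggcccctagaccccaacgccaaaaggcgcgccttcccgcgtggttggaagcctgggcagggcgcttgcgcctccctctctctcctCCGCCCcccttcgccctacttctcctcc
Tnxb: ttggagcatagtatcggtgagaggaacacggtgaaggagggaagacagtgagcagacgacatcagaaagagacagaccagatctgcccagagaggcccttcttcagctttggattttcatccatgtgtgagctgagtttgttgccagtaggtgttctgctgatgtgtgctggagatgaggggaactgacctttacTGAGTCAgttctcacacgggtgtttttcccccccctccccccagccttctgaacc
Prelp: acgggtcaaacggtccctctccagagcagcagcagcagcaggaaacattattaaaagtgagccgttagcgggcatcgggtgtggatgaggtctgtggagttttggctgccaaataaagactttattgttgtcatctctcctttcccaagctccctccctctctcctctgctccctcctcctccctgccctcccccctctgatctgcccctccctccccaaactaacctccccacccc
Tnc: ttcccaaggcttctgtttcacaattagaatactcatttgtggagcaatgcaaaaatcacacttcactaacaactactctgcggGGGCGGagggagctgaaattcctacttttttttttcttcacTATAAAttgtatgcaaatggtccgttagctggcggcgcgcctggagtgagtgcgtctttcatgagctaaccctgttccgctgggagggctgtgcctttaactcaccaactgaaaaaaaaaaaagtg
Efemp1 and Tnxb, both lower under the patch without strain, each hold an AP-1 match in this window. No other member with an entry holds one, which includes the members that passed and are not shown. The Efemp1 match reads TGAATCA and the Tnxb match reads TGAGTCA. The 27 members have 34 windows in the table, since some have more than 1 start. Of these, 2 held an AP-1 match (5.88%), against 6.75% of all 32851 promoters when 250 bases were searched. A TEAD match was found in 5 windows (14.7%, against 12.6% of all promoters), a TATA box in 7 (20.6%, against 12.4%) and an SP1 match in 15 (44.1%, against 32.7%). The CArG box was found in 0 of 34, against 1.47% of all promoters. The Prelp window holds none of the letters searched. These are matches of letters and not measured binding sites.

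Counts of reads per gene totalled 20354677 to 25059371 per library, and levels are given as CPM, the counts of a gene scaled to a common library total. By library totals before scaling between libraries, a gene with 3 counts has at most 0.147 CPM, a limit for counting error only. Together the 39 members made up 2.98% ± 0.377 (SD, n = 5) of counts for TD, 3% ± 0.574 (SD, n = 4) for the strained patch and 3.21% ± 0.445 (SD, n = 3) for the unstrained one. Markers of skin wound tissue were present in every library, with 8001 to 21149.9 summed CPM for 10 keratinocyte genes and 3196 to 5679 for 10 fibroblast genes, of which 1 (Pi16) fell for both patches together. The fibroblast sum spanned 3608 to 5679 CPM in TD, 3196 to 5328 under strain and 3544 to 4503 without strain, and the groups overlapped. Sample titles carry numbers, 1 to 6 for TD wounds and 7 to 15 for wounds with a patch. Title number and dressing therefore cannot be told apart. Titles also carry a letter, whose meaning the labels do not state. It was L for TD replicate 1, strain replicates 1, 2 and 4 and no-strain replicates 2 and 3, and R for the rest. Letter and dressing therefore cannot be fully told apart.

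The share of members that differed between dressings lay near the share of all tested genes, so the counts are no result about these genes as a group. In the comparison of strain with TD, 4 of 39 members passed an adjusted p of 0.05 in the edgeR quasi-likelihood test (10.3%), 1 higher and 3 lower, while 12.6% of all 18618 genes passed (6.2% higher, 6.41% lower). Between the unstrained patch and TD it was 5 of 39 (12.8%), 2 higher and 3 lower, beside 17.8% of all genes (9.35% higher, 8.4% lower). For the mean of both patches against TD it was 9 of 39 (23.1%), 2 higher and 7 lower, beside 24.4% of all genes (12.4% higher, 12.1% lower). These 3 comparisons share the TD libraries. The median log2 fold change over the 39 members was -0.14, -0.07 and -0.12 in that order, where the median of all genes was 0.02, 0.00 and 0.01.

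Sparcl1 was the member that rose under strain, while Thbs4, Fmod and Prelp fell. Without strain, Thbs1 and Tnc rose and Prelp, Efemp1 and Tnxb fell. For the mean of both patches, Sparcl1 and Tnc rose, and Prelp, Efemp1, Acan, Fmod, Tnxb, Comp and Hspg2 fell. In the comparisons that called it, each of these members kept its direction in every alternative fit that gave it a value. With library totals alone in place of scaled totals, the no-strain comparison gave 0 higher and 3 lower members in place of 2 and 3, and among all genes 38.1% of calls were higher in place of 52.7%. With the level of skeletal muscle markers added to the model as a covariate, 0 of 4 members remained for strain, Prelp and Efemp1 for no strain and 0 of 9 for both patches. Some lost calls had estimates as large as before: Tnxb -1.31 for no strain (adjusted p = 0.0568) and -1.24 for both patches (adjusted p = 0.142), Thbs1 1.08 for no strain (adjusted p = 0.132) and Hspg2 -0.45 for both patches (adjusted p = 0.205). Others were smaller: Fmod -0.57 for strain (adjusted p = 0.782) and -0.44 for both patches (adjusted p = 0.674), Acan -0.62 (adjusted p = 0.682), Comp -0.58 (adjusted p = 0.45) and Tnc 0.49 (adjusted p = 0.582) for both patches, Tnc 0.73 for no strain (adjusted p = 0.259) and Prelp -0.28 for strain (adjusted p = 0.785). Of all genes, 1, 1076 and 129 were called with that covariate, and its summed markers did not overlap between strain (3546 to 6777 CPM) and TD (7508 to 18505 CPM). Differences are given from here on as log2 fold change ± SE with the adjusted p of the edgeR quasi-likelihood test.

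**Figure D1:**
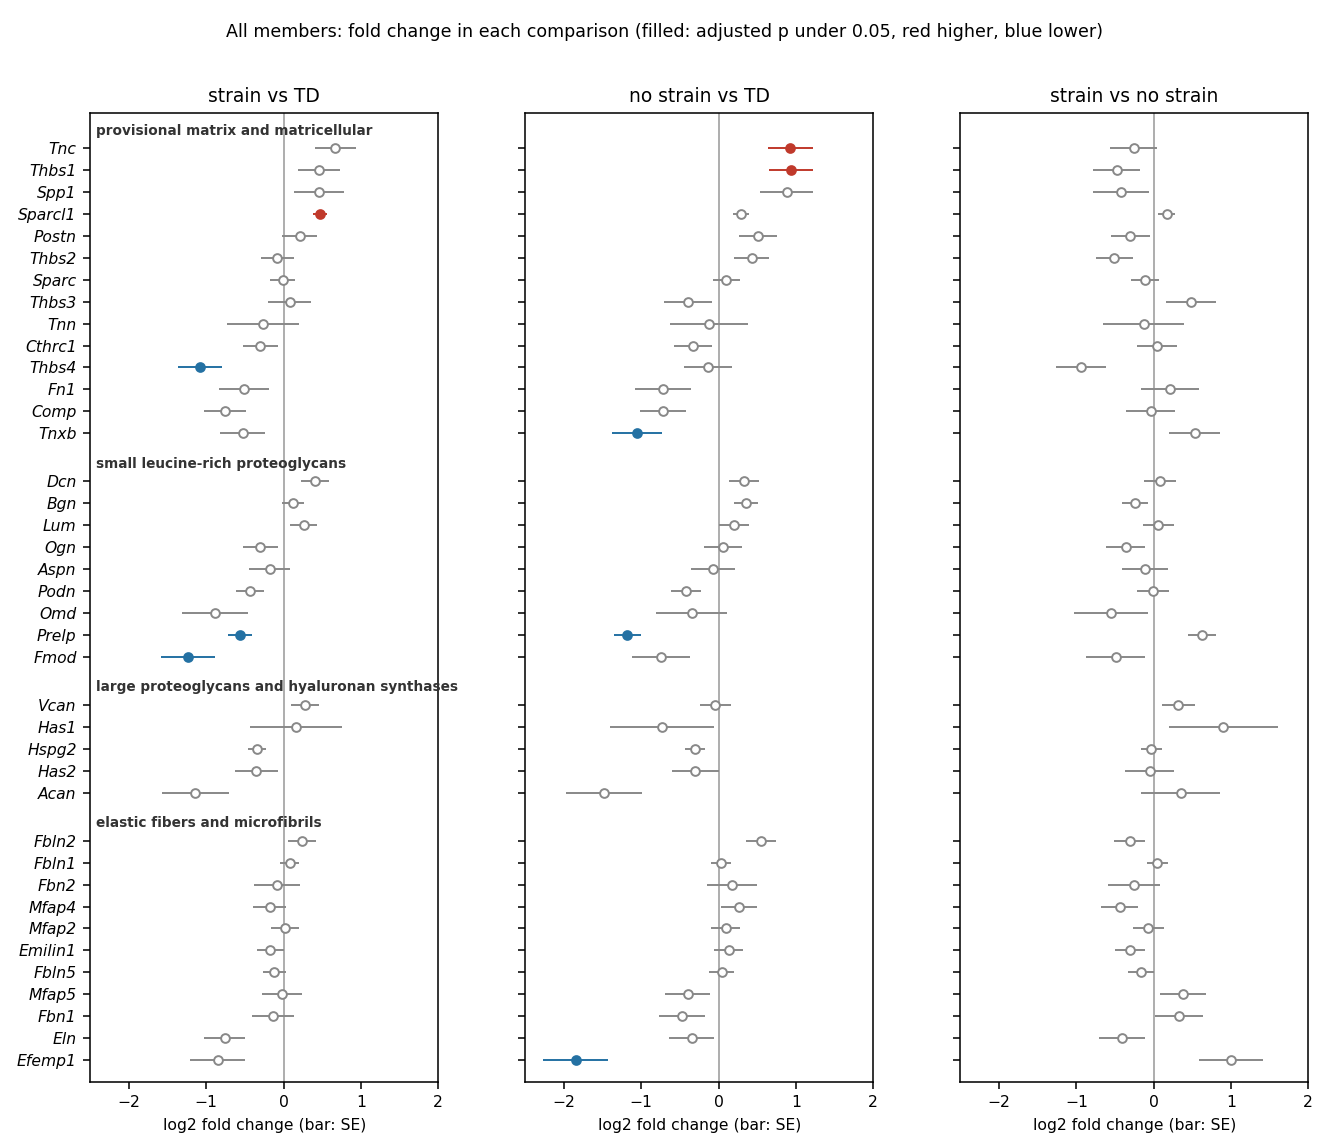
Log2 fold change (horizontal axis) of the 39 members in 3 comparisons, grouped by role, with bars of 1 standard error; filled points passed an adjusted p of 0.05 and open points did not. Filled points number 4 in the left panel (strain over TD), 5 in the middle panel (no strain over TD) and 0 in the right panel (strain over no strain).

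The direct comparison of the patches asks what the imposed strain itself changed. In the edgeR quasi-likelihood test 0 of 39 members passed, as did 0% of all genes, and the smallest adjusted p among members was 0.872. An unadjusted p under 0.05 was reached by 3 members (Prelp, Thbs4 and Efemp1), where 5.61% of all genes reached that level. DESeq2 and limma-voom also called 0 members, and of all genes DESeq2 called 33 (0.177%) and limma-voom 0. Efemp1 had the highest estimate for strain over no strain, 1.00 ± 0.413, and Thbs4 the lowest, -0.94 ± 0.319, each with an adjusted p of 0.872 (edgeR). Across fits that left out a library, these estimates ran from 0.552 to 1.146 for Efemp1 and from -1.206 to -0.481 for Thbs4. Libraries of the 2 patches did not overlap for Efemp1, higher under strain, and Thbs2, lower under strain, which is 2 of 39 members beside 5.62% of all genes. With 4 and 3 libraries, a difference that did not pass is not shown to be absent.

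Among the matricellular genes, the most abundant per length was Sparc, which encodes the collagen-binding glycoprotein osteonectin. It averaged 1644 CPM per kilobase of exon, ahead of Postn (periostin, a fibroblast matricellular protein) at 599 and Spp1 (osteopontin, made by macrophages and other cells) at 528. Sparc had 6616, 6613, 4458, 6355 and 6573 CPM in TD, 6327, 4615, 5861 and 7535 CPM under strain and 5811, 7334 and 6611 CPM without strain. The groups overlapped throughout, and TD replicate 3 and strain replicate 2 were the lowest. The log2 fold change of both patches over TD was 0.05 ± 0.144 (adjusted p = 0.835), a value that changed sign when single libraries were left out.

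Tnc, the gene of tenascin-C (ENSMUSG00000028364, chr4:63959785-64047015), a hexameric protein deposited at wound edges, rose without strain and for both patches together. It had 1147, 856, 741, 1313 and 785 CPM in TD, 2034, 1424, 991 and 1712 CPM under strain, and 1078, 2177 and 2262 CPM without strain. Strain replicate 3 and no-strain replicate 1 lay within the TD range and the other patch libraries above it. The log2 fold change was 0.93 ± 0.288 for no strain (adjusted p = 0.0466) and 0.80 ± 0.241 for both patches (adjusted p = 0.0337). For strain alone it was 0.67 ± 0.268 (adjusted p = 0.121). Of 12 fits that each left out a library, 4 called Tnc for no strain and 5 for both patches.

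Thbs1 (ENSMUSG00000040152, chr2:118111876-118127133) encodes thrombospondin-1, an activator of latent TGF-beta and an inhibitor of angiogenesis. Its level was 300.1, 304, 357, 381 and 225 CPM in TD, 269.9, 531, 416 and 504 CPM under strain, and 328, 834 and 640.5 CPM without strain. No-strain replicate 1 lay inside the TD range, and the other no-strain libraries were the highest of all 12. The estimate was 0.94 ± 0.286 for no strain against TD (adjusted p = 0.0437), a call kept in 3 of 12 fits that left out a library. For strain it was 0.46 ± 0.267 (adjusted p = 0.282).

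Sparcl1 (ENSMUSG00000029309, chr5:104079111-104113733) encodes hevin, a relative of osteonectin that is also made by endothelial cells. It had 175, 192, 162, 179 and 217 CPM in TD, 249, 232, 244 and 299 CPM under strain, and 236, 215 and 230.1 CPM without strain. Every strain library was above every TD library, and no-strain replicate 2 lay just below the highest TD library. Against TD the log2 difference was 0.47 ± 0.0948 for strain (adjusted p = 0.013) and 0.38 ± 0.0841 for both patches (adjusted p = 0.00844). Both calls held in 12 of 12 fits that left out a library, with adjusted p up to 0.0353 and 0.027. For no strain the estimate was 0.29 ± 0.103 (adjusted p = 0.0685). The summed level of 10 endothelial marker genes moved the same way, from 486 to 613 CPM in TD to 621 to 888 under strain and 691 to 798 without strain, and 8 of 10 rose for both patches. Its part in the Sparcl1 difference was not tested. With the muscle list as a covariate the Sparcl1 estimate was 0.27 for strain (adjusted p = 0.63) and 0.23 for both patches (adjusted p = 0.383).

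Tnxb, the gene of tenascin-X (ENSMUSG00000033327, chr17:34670535-34719815), a large glycoprotein of loose connective tissue whose loss causes a form of Ehlers-Danlos syndrome, fell without strain and for both patches together. It had 716, 909, 487, 464 and 983 CPM in TD, 519.6, 455, 294 and 703 CPM under strain, and 313, 277 and 435 CPM without strain. All no-strain libraries were below all TD libraries, while the strain libraries overlapped TD. The fitted change was -1.06 ± 0.323 for no strain (adjusted p = 0.0435) and -0.79 ± 0.248 for both patches (adjusted p = 0.0381), and 4 and 5 of 12 fits that left out a library kept these calls. For strain it was -0.53 ± 0.288 (adjusted p = 0.245).

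Thbs4 and Comp, thrombospondins of tendon, cartilage and muscle, fell in different comparisons. Thbs4 (ENSMUSG00000021702, chr13:92751590-92794818) had 166, 151, 178, 153 and 111 CPM in TD, 44.6, 68.3, 105 and 68.9 CPM under strain, and 83.4, 117 and 213 CPM without strain. All strain libraries were below TD, and of the no-strain libraries 1 lay within the strain range, 1 within the TD range and 1 above both. The log2 fold change for strain against TD was -1.08 ± 0.289 (adjusted p = 0.034), and 5 of 12 fits that left out a library called it. Skeletal muscle genes moved alongside: 16 markers took 0.751% to 1.91% of counts in TD, 0.351% to 0.695% under strain and 0.516% to 1.08% without strain, and 11 of 15 tested fell under strain. With the muscle list as a covariate the Thbs4 estimate for strain was -0.01 (adjusted p = 0.997). Because muscle levels did not overlap between strain and TD, the share of muscle and the dressing cannot be told apart for Thbs4. Comp (ENSMUSG00000031849, chr8:70373558-70382066), cartilage oligomeric matrix protein, was scarce, with 1.6, 1.56, 2.75, 1.98 and 2.59 CPM in TD, 1.39, 0.675, 1.75 and 1.1 CPM under strain, and 1.13, 1.24 and 1.44 CPM without strain. Its log2 fold change for both patches was -0.74 ± 0.233 (adjusted p = 0.0386), kept in 5 of 12 fits that left out a library, and it rests on as few as 15 counts in a library. The 7 chondrocyte markers summed to 29.1 to 49.8 CPM in TD, 18.8 to 27.6 under strain and 18.2 to 25.6 without strain. Of these, Col2a1, Matn1, Col9a1 and Cnmd stayed under 1 CPM in every library, and only 2 of the 7 passed the filter on low counts. The sum therefore rests on few of the 7 genes. Sox9, 1 of the 2 that passed the filter, fell for both patches. The part of these markers in the Comp difference was not tested.

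**Figure D2:**
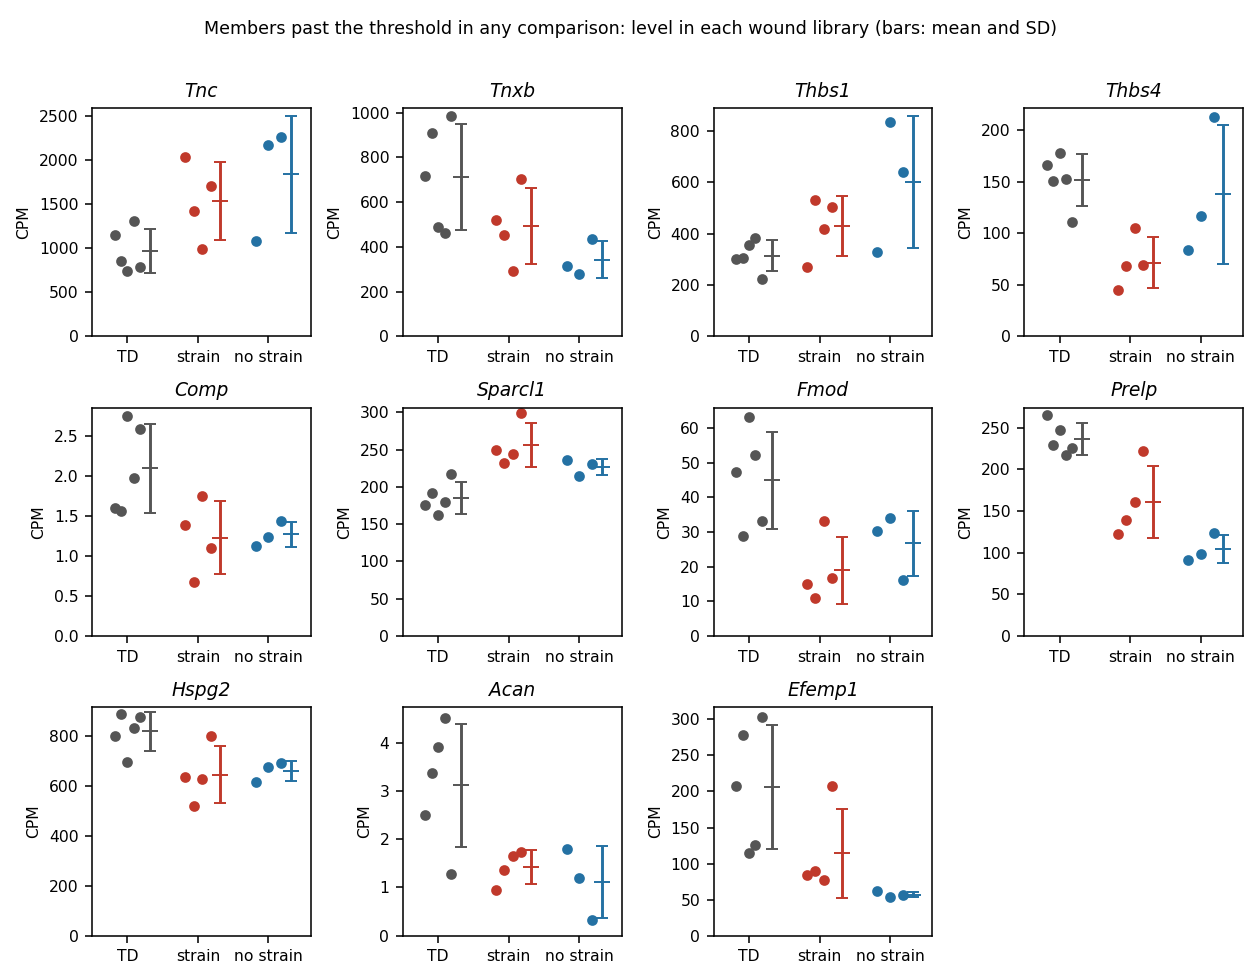
CPM (vertical axis, from 0) of the 11 members that passed in any comparison, in each TD, strain and no-strain library, with the mean and SD beside the points. Thbs4 under strain, and Tnxb, Comp, Prelp, Hspg2 and Efemp1 without strain, lie below every TD library. Sparcl1 under strain lies above every TD library.

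The other matricellular genes did not pass against TD. Fn1 (fibronectin, the main adhesive protein of the provisional matrix) averaged 2813 ± 933 CPM (SD, n = 5) in TD, 1972 ± 819.6 (SD, n = 4) under strain and 1710.2 ± 636 (SD, n = 3) without strain. Postn averaged 4498 ± 795 CPM (SD, n = 5), 5201 ± 1547 (SD, n = 4) and 6419 ± 1592 (SD, n = 3) in the same order. Spp1 averaged 652 ± 176 CPM (SD, n = 5), 896 ± 189 (SD, n = 4) and 1201 ± 759 (SD, n = 3), and no-strain replicate 3 alone reached 2066. The remaining ones, Thbs2, Thbs3, Tnn and Cthrc1, had estimates for both patches between -0.32 and 0.17, with the lowest adjusted p at 0.267 (edgeR).

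Of the 9 small leucine-rich proteoglycans, Prelp and Fmod fell. Those with the highest level per length did not pass: Dcn (decorin, which binds collagen fibrils and TGF-beta) averaged 376 CPM per kilobase, Lum (lumican) 375 and Bgn (biglycan) 301. Dcn had 2127, 2062, 1487, 1559 and 2115 CPM in TD, 2691, 2446, 1884 and 2915 CPM under strain, and 1739, 2443 and 2889.8 CPM without strain. The groups overlapped, and the log2 fold change for both patches was 0.37 ± 0.16 (adjusted p = 0.111). For Bgn it was 0.24 ± 0.128 (adjusted p = 0.198) and for Lum 0.23 ± 0.157 (adjusted p = 0.301).

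Prelp (ENSMUSG00000041577, chr1:133910304-133921414), whose product links basement membranes to the collagen beneath, gave the smallest adjusted p of the members without strain and for both patches together. It had 265, 229.7, 247, 217 and 226 CPM in TD, 123, 139, 160.3 and 222 CPM under strain, and 91.5, 98 and 124 CPM without strain. TD libraries were close together, every no-strain library was below them, and strain replicate 4 was the only strain library inside their range. The log2 fold change was -1.18 ± 0.178 for no strain (adjusted p = 0.00311) and -0.87 ± 0.136 for both patches (adjusted p = 0.00198). Both calls held in 12 of 12 fits that left out a library. The strain estimate was -0.56 ± 0.158 (adjusted p = 0.0414), a call kept in 3 of 12 such fits, and between the patches the estimate was 0.62 ± 0.181 (adjusted p = 0.872). With the muscle list as a covariate the no-strain value was -1.04 (adjusted p = 0.0253) and the value for both patches -0.66 (adjusted p = 0.167).

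Fmod (fibromodulin, ENSMUSG00000041559, chr1:134037254-134048277), a regulator of collagen fibril thickness abundant in tendon, also fell. It had 47.2, 28.8, 63.1, 52.1 and 33.3 CPM in TD, 15, 11.1, 33.1 and 16.6 CPM under strain, and 30.2, 33.9 and 16.2 CPM without strain. Strain replicate 3 lay inside the TD range and the other strain libraries below it. The estimate was -1.24 ± 0.348 for strain (adjusted p = 0.0395), and for both patches it fell by 1.00 ± 0.293 (adjusted p = 0.0305). Of 12 fits that left out a library, 5 called it for strain and 6 for both patches. The 6 marker genes of tendon and fascia summed to 73.4 to 103 CPM in TD, 69.8 to 101 under strain and 95.1 to 139 without strain, and of these Fibin rose and Chad fell for both patches. The other proteoglycans of this class, Ogn, Aspn, Omd and Podn, had estimates for both patches from -0.62 to -0.12, with the lowest adjusted p at 0.0683 (edgeR, Podn). Leaving out strain replicate 3 brought calls of lower Podn for strain, for no strain and for both patches. DESeq2 and the fit without no-strain replicate 2 also called Podn for both patches. Omd was called lower for strain without no-strain replicate 3.

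Of the large proteoglycans and hyaluronan synthases, Hspg2 had the highest level per length (50.3 CPM per kilobase). It encodes perlecan, the heparan sulfate proteoglycan of basement membranes (ENSMUSG00000028763, chr4:137468769-137570630). It had 799, 887, 694, 832 and 873 CPM in TD, 636, 518, 627 and 797 CPM under strain, and 614, 673 and 689 CPM without strain. The no-strain libraries were all below TD, and 3 of 4 strain libraries were. The difference was small, with a log2 fold change of -0.33 ± 0.103 for both patches (adjusted p = 0.0388), and 2 of 12 fits that left out a library called it.

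Acan (ENSMUSG00000030607, chr7:79053483-79115099) encodes aggrecan, the main proteoglycan of cartilage, which is also present in the hair follicle sheath. It was near the lower limit of the data, with 2.51, 3.37, 3.91, 4.52 and 1.27 CPM in TD, 0.944, 1.35, 1.64 and 1.73 CPM under strain, and 1.8, 1.2 and 0.325 CPM without strain. TD replicate 5 lay among the patch libraries, and the other TD libraries were above all of them. The log2 fold change for both patches was -1.31 ± 0.37 (adjusted p = 0.0254), and the call was lost without TD replicate 2, 3 or 4. Hair follicle markers moved alongside, with 38.7 to 154 summed CPM for 9 genes in TD, 17.8 to 30.9 under strain and 9.15 to 33.6 without strain. Of these, 6 of 8 tested fell for both patches, Krt31 stayed under 1 CPM in every library, and their part in the Acan difference was not tested. Vcan (versican), Has1 and Has2 (hyaluronan synthases) had estimates of 0.12, -0.28 and -0.33 for both patches, and none passed. Has1 was the most variable member in TD and under strain, at 2.45 to 28.8 CPM in the strain libraries.

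Of the 11 genes of elastic fibers and microfibrils, Efemp1 passed against TD in the edgeR fit of all libraries and the other 10 did not. Mfap4, a fibrillin-binding microfibril protein with the highest level per length here (225 CPM per kilobase), had 396, 417, 451, 498 and 371 CPM in TD, 459, 221, 453 and 376 CPM under strain, and 466, 683 and 391 CPM without strain. The groups overlapped, and the log2 fold change for both patches was 0.05 ± 0.188 (adjusted p = 0.883). Eln (elastin, the core of the elastic fiber) averaged 547 ± 80.8 CPM (SD, n = 5) in TD, 322 ± 130.0 (SD, n = 4) under strain and 429.8 ± 113 (SD, n = 3) without strain. All strain libraries had less Eln than all TD libraries, but the log2 fold change of -0.76 ± 0.267 did not pass (adjusted p = 0.0828). Fbln2 (fibulin-2) was higher in every no-strain library than in every TD library, at 0.55 ± 0.193 on the log2 scale. It did not pass either (adjusted p = 0.0678, edgeR). Against TD, DESeq2 called Eln lower under strain and Fbln2 higher without strain. Leaving out strain replicate 1 also brought a call of Eln for strain, and leaving out strain replicate 2 a call of Fbln2 for no strain.

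Efemp1 (ENSMUSG00000020467, chr11:28853204-28926743) encodes fibulin-3, a secreted protein of elastic tissue that binds TIMP3. It had 207, 279, 114, 126 and 304 CPM in TD, 84.7, 89.4, 76.5 and 207 CPM under strain, and 61.4, 53.6 and 55.9 CPM without strain. The no-strain libraries were close together and below every other library, and strain replicate 4 had a TD-like level. The fitted change was -1.85 ± 0.415 for no strain (adjusted p = 0.0134) and -1.35 ± 0.307 for both patches (adjusted p = 0.01). The first call was lost without no-strain replicate 3 (adjusted p = 0.0525) and the second held in 12 of 12 fits that left out a library. For strain it was -0.85 ± 0.358 (adjusted p = 0.138), and the fit without strain replicate 4 called it (adjusted p = 0.0305). With the muscle list as a covariate the no-strain value was -2.22 (adjusted p = 0.0255) and that for both patches -1.95 (adjusted p = 0.0863).

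The rest of this class, which includes the fibrillin genes Fbn1 and Fbn2, the fibulin genes Fbln1 and Fbln5, Mfap2, Mfap5 and Emilin1, had estimates for both patches between -0.30 and 0.06. Fbln1 averaged 97.3 ± 11 CPM (SD, n = 5) in TD, 103 ± 9.27 (SD, n = 4) under strain and 99.3 ± 20.3 (SD, n = 3) without strain. Over all 39 members, libraries did not overlap with TD for 3 under strain (14.6% of all genes) and for 6 without strain (26.7% of all genes). Between both patches together and TD they did not overlap for 0 members, beside 11% of all genes.

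**Figure D3:**
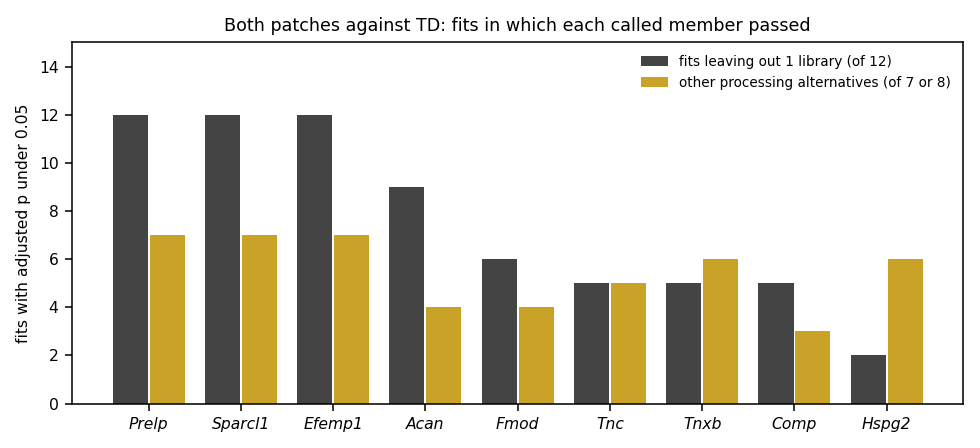
Number of fits (vertical axis) with an adjusted p under 0.05 for each member called for both patches against TD: dark gray bars are the 12 fits that each left out a library, yellow bars the other processing alternatives. Prelp, Sparcl1 and Efemp1 passed in 12 of 12, Acan in 9, and Hspg2 in 2.

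Within each group the members' lowest or highest values were counted by library. TD replicate 3 was the lowest of 5 TD libraries for 23 of 39 members, strain replicate 2 the lowest of 4 strain libraries for 22, and no-strain replicate 1 the lowest of 3 for 21. Strain replicate 4 was the highest of its group for 24 members and the lowest for 0, while no-strain replicate 3 was the lowest of its group for 14 and the highest for 16. The share of all counts taken by the members was 2.32% in TD replicate 3 and 2.36% in strain replicate 2, and 3.68% in strain replicate 4. The fibroblast marker sum was 3608 CPM in TD replicate 3, the lowest of TD, 3232 in strain replicate 2, beside 3196 in strain replicate 3, and 5328 in strain replicate 4, the highest of its group. The coefficient of variation of a member within a group had a median of 18% in TD, 28.8% under strain and 24.4% without strain. Without strain replicate 2, 1 member was called for strain against TD in place of 4, beside 4.75% of all genes in place of 12.6%. Without TD replicate 3 it was also 1 member, beside 7.03% of all genes. Leaving out no-strain replicate 3 left 1 member for no strain against TD in place of 5. Of all genes, 7.88% were then called in place of 17.8%.

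**Figure D4:**
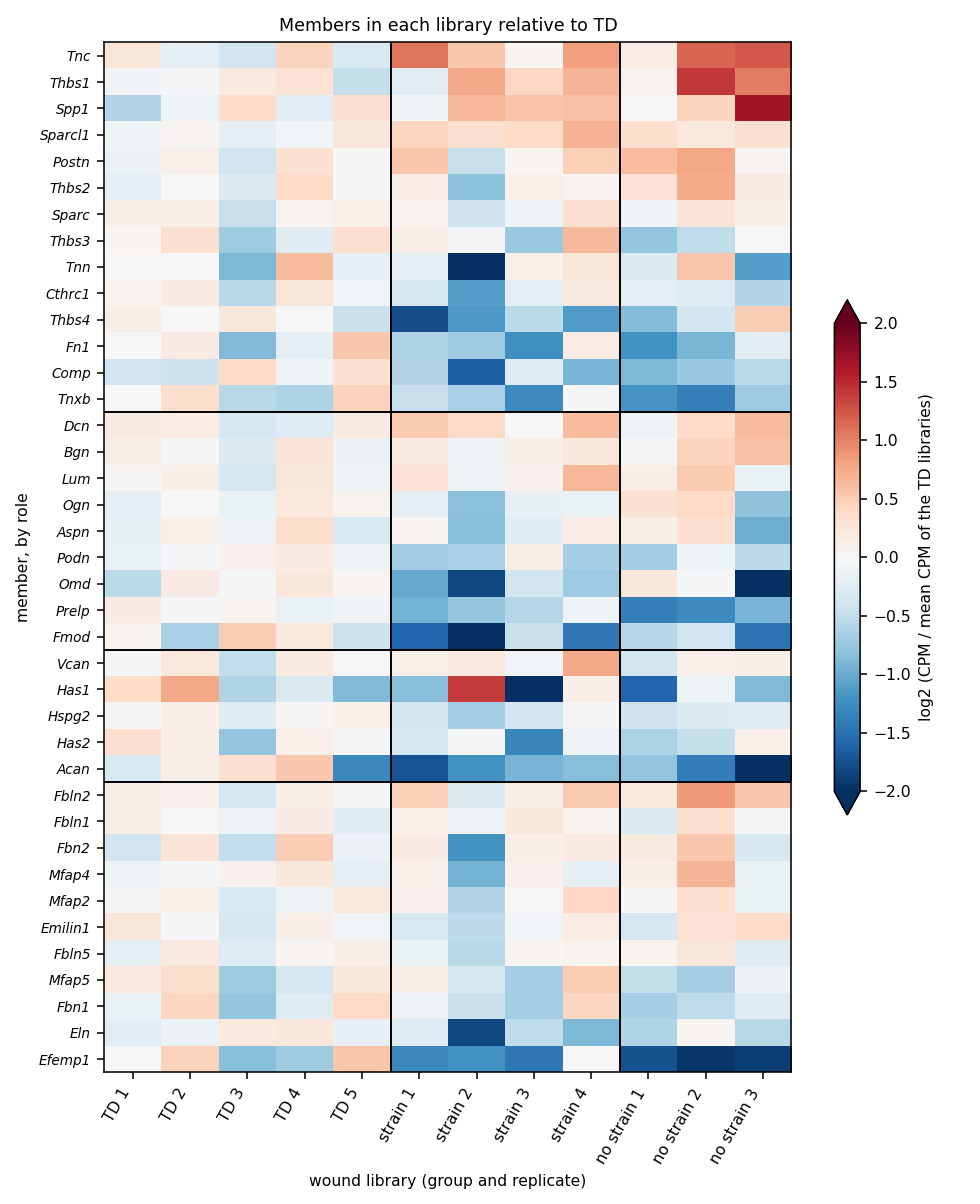
Level of each member (rows, by role) in each library (columns) as log2 of CPM over the TD mean, with colors saturating at 2 in either direction. TD replicate 3 and strain replicate 2 are pale to deep blue over many rows, and Efemp1 and Prelp are blue in all 3 no-strain libraries.

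The wider pathways were read from lists of other genes. Of 14 tested genes of hyaluronan synthesis, binding and turnover, 5 rose and 2 fell for both patches (50% called, beside 24.4% of all genes). Cemip, which encodes a hyaluronan-degrading protein, rose: its mean was 18.3 ± 4 CPM (SD, n = 5) for TD, 40.5 ± 13.2 (SD, n = 4) under strain and 80.8 ± 2.86 (SD, n = 3) without strain, with a log2 fold change of 1.65 ± 0.187 for both patches (adjusted p = 0.000637). Has3, a hyaluronan synthase of keratinocytes, rose by 1.39 ± 0.359 for both patches (adjusted p = 0.0175). Its mean was 6.03 ± 1.8 CPM (SD, n = 5) in TD, 12.1 ± 2.4 (SD, n = 4) under strain and 20.7 ± 16.9 (SD, n = 3) without strain. Against TD, Has3 passed for no strain (adjusted p = 0.0163) but not for strain (adjusted p = 0.116). The fibroblast synthases Has1 and Has2 did not pass. Lyve1, the hyaluronan receptor of lymphatic vessels and some macrophages, was lower at -1.47 ± 0.232 (adjusted p = 0.00209), as was the scarce link protein gene Hapln3 (-1.14 ± 0.347, adjusted p = 0.0339).

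Among 24 tested genes of other proteoglycan core proteins, 3 rose and 5 fell for both patches (33.3%, beside 24.4% of all genes). Srgn (serglycin, of leukocyte granules) rose with a log2 fold change of 1.23 ± 0.22 (adjusted p = 0.00349). Neutrophil markers moved alongside it: all 12 rose for both patches, from summed levels of 473 to 1633 CPM in TD to 939.9 to 8727 under strain and 2569 to 5298 without strain, and their part was not tested. Bcan also rose for both patches, at 1.00 ± 0.29 (adjusted p = 0.028). It was called for neither patch alone (adjusted p = 0.0814 for strain and 0.0511 for no strain). Bcan was scarce, with means of 1.74 CPM in TD, 3.31 under strain and 3.66 without strain. Cspg4 (the NG2 proteoglycan, present on pericytes and other cells) fell at -0.69 ± 0.072 (adjusted p = 0.000426). Of 7 pericyte markers, which include Cspg4, Rgs5 rose for both patches and 5 had estimates above 0, and their sum was 520.4 to 609.9 CPM in TD, 527 to 786 under strain and 630.2 to 709 without strain. Ncan, at -3.04, fell from 7.37 ± 2.94 CPM (SD, n = 5) in TD to 1.52 ± 0.574 (SD, n = 4) under strain and 0.515 ± 0.263 (SD, n = 3) without strain.

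Of 16 other genes of elastic fiber assembly and cross-linking, 1 rose and 4 fell for both patches (31.2%, beside 24.4% of all genes). Ltbp4 and Ltbp3, which encode latent TGF-beta binding proteins, fell by 0.70 and 0.40 on the log2 scale (adjusted p = 0.00128 and 0.00516), and Mmrn2, an endothelial multimerin gene, rose by 0.48 (adjusted p = 0.00813). Among the lysyl oxidase genes, whose enzymes cross-link elastin and collagen, Loxl4 fell in all 3 comparisons with TD, and Lox and Loxl1 were not called in any. Of 22 other matricellular and adhesive glycoprotein genes, 2 rose (Tgfbi at 0.48 and Vtn at 0.80) and 7 fell (40.9% called, beside 24.4% of all genes). The falling genes with the smallest p were the testican genes Spock3 and Spock2. Spock2 fell by 1.52 on the log2 scale, and Spock3 averaged 0.687 ± 0.21 CPM (SD, n = 5) in TD, while its patch means, 0.0683 and 0.0903 CPM, lay below the level of 3 counts. The 24 genes of glycosaminoglycan chain synthesis gave 1 call for both patches, Ust (-0.54 ± 0.118, adjusted p = 0.00792), which is 4.17% of the list beside 24.4% of all genes. Of 16 receptor genes 25% were called: Itga9, whose integrin binds tenascin-C and osteopontin, rose by 0.31 and Itga8, Cd36 and Ddr2 fell. Cd36 is also expressed by adipocytes, and 9 of 10 adipocyte markers fell for both patches, with summed levels of 1273 to 2913 CPM in TD, 897 to 1384 under strain and 689 to 984 without strain. Cd36 itself averaged 1164 ± 272 CPM (SD, n = 5) in TD, 637 ± 124 (SD, n = 4) under strain and 815 ± 218 (SD, n = 3) without strain. Against TD it was called for strain (-0.87 ± 0.219, adjusted p = 0.0277) but not for no strain (-0.52 ± 0.238, adjusted p = 0.155). The part of the adipocyte markers in the Cd36 difference was not tested. For strain against TD, where 12.6% of all genes were called, higher and lower calls numbered 3 and 2 in the hyaluronan list (35.7%), 1 and 2 among other proteoglycans (12.5%) and 1 and 3 in elastic fiber assembly (25%). They numbered 0 and 6 among other matricellular genes (27.3%), 0 and 1 in chain synthesis (4.17%) and 0 and 2 among receptors (12.5%). For no strain against TD, where 17.8% of all genes were called, they numbered 3 and 1 (28.6%), 2 and 3 (20.8%), 2 and 3 (31.2%), 2 and 4 (27.3%), 0 and 1 (4.17%), and 1 and 2 (18.8%) in that order. No list was tested against the other genes. In the direct comparison of the patches, 0 genes of these 6 lists passed.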

How the data were processed

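Poly(A) RNA libraries from 12 wounds were analysed from the deposited raw counts per gene, 1 table per library, per the file headers. The submitters' processing notes name bcl2fastq 2.17, FastQC, cutadapt, STAR, featureCounts, DESeq2 and the GRCm38 build. Annotation release, strand setting and the rule for shared reads are not given in the sources used here. Called members with exon bases shared with a gene on the opposite strand (176 for Tnc, 3 for Tnxb, 208 for Thbs1, 350 for Prelp) could hold reads of that gene.

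Of 54232 identifiers per file, 54165 matched a symbol in GENCODE M21 (GRCm38), which also gave exon lengths and positions. Genes were kept by filterByExpr (minimum count 10, minimum total 15), scaled by TMM and fitted in 1 edgeR 4.0.16 quasi-likelihood model over all 12 libraries (R 4.3.3). Adjusted p-values are Benjamini-Hochberg values over the 18618 genes tested. CPM uses the scaled totals. Standard errors come from the fold change and its F statistic. The fit was also run on simulated counts with known changes in a small set of genes of the strain group alone. These data differ more widely between groups, and no result here rests on that run.

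Members with an adjusted p under 0.05 in any comparison, and the most abundant per length of each role, are given in every library; each pathway list is shown by its counts and by at most 2 rising and 2 falling genes, those of smallest p for both patches, and further names were added after their values were seen. The members and lists were chosen with earlier results of these data known. Alternatives were other scalings and filters, DESeq2 1.42.0, limma 3.58.1 (voom), fits on the groups compared, covariates (title letter, muscle list) and leaving out each library. Marker lists were described, not tested as sets.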

Additional observations from a re-analysis of the deposited data

Results flagged for a closer look

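A library far from the rest of its group was looked for in the 5 TD and the 4 strain libraries of each member. Of 78 sets of values, 7 held such a library, where a nominal rate of 5% gives about 3.9. The sets are not independent, since strain replicate 2 was the lowest strain library for 22 of 39 members. The 7 therefore cannot be weighed against 3.9. Strain replicate 2 was far below the other strain libraries for Thbs2 (741 CPM, next 1359.7), Ogn (112 CPM, next 174) and Fbn2 (50.5 CPM, next 126). Sparc in TD replicate 3 was 4458 CPM, below the next TD library at 6355. Spp1 in strain replicate 1 was 617 CPM, with 966 the next. Above the other strain libraries were Podn in strain replicate 3 (76.3 CPM, next 44.9) and Efemp1 in strain replicate 4 (207 CPM, next 89.4).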

How the results depend on the processing

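For strain against no strain, 0 members were called in every alternative. For strain against TD, 4 became 1 without a filter on low counts or with the title letter as a covariate. The count was 8 with DESeq2 and 0 when the level of the muscle markers was a covariate. The share of all genes went from 12.6% to 4.28%, 4.29%, 18.9% and 0.00537% in that order. For no strain against TD, 5 became 3 with library totals alone, limma-voom or the title letter. The count was 2 without the filter or with the muscle list, and 8 with DESeq2. The share of all genes went from 17.8% to 17.7%, 17.4%, 11.5%, 6.67%, 5.78% and 23.5% in that order. For both patches, 9 became 5 without the filter, 4 with the title letter and 0 with the muscle list. Of all genes, 24.4% became 9.73%, 13.9% and 0.693% in that order. Leaving out each library gave 0 to 0 calls for strain against no strain and 1 to 5 for strain against TD. It gave 1 to 5 for no strain against TD and 5 to 10 for both patches against TD. Such fits called 0%, 4.75% to 13.3%, 7.88% to 18.4% and 17.2% to 24.7% of all genes in that order. Strain against TD fell to 1 call without TD replicate 1, 3 or 4 or strain replicate 2, and to 2 without TD replicate 2 or strain replicate 1. No strain against TD fell to 1 without no-strain replicate 3, to 2 without TD replicate 1 or 2 or no-strain replicate 2, and to 3 without TD replicate 3. Both patches fell to 5 without TD replicate 2, 3, 4 or 5. Why the counts changed was not tested.

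Estimates were followed across fits only for members called in any comparison and for the most abundant per length of each role. Among these, changes of sign were found only in values that did not pass. With library totals alone, strain against no strain was 0.009 for Comp and 0.012 for Hspg2. With the muscle list it was 0.062 for Comp and -0.13 for Dcn, and against TD it was 0.40 for Thbs4 and -0.073 for Sparc (no strain) and 0.20 for Thbs4, -0.22 for Sparc and -0.074 for Mfap4 (both patches). With the title letter, Sparc for both patches was -0.031. Across fits that left out a library, strain against no strain ran from -0.28 to 0.16 for Comp, -0.11 to 0.25 for Dcn, -0.15 to 0.052 for Hspg2 and -0.08 to 0.87 for Acan. Strain against TD ran from -0.13 to 0.092 for Sparc and -0.29 to 0.001 for Mfap4, no strain against TD from -0.60 to 0.13 for Thbs4, and both patches from -0.049 to 0.10 for Sparc and -0.091 to 0.13 for Mfap4. No paired analysis was possible because the labels give no replicate number shared between groups.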
